A study of Mus musculus with 4 samples.

Results

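The cytosolic ribosomal protein genes were described in single-cell RNA sequencing libraries of mouse testes at postnatal day 15. The set held every gene whose symbol begins with *Rpl* or *Rps* and a digit, without the pseudogene features and the S6 kinases, that had at least 100 UMIs (unique molecular identifiers, each counting 1 captured transcript) over the 4 libraries in barcodes with more than 1000 genes and less than 10% mitochondrial UMIs. This gave 82 genes of the 32285 features. Of these, 40 were core proteins of the large subunit and 29 core proteins of the small subunit, 4 were X-linked (*Rpl10*, *Rpl36a*, *Rpl39* and *Rps4x*) and 9 were paralogues or related genes (*Rpl10l*, *Rpl39l*, *Rpl36al*, *Rpl3l*, *Rpl22l1*, *Rps27l*, *Rps27rt*, *Rpl7l1* and *Rps19bp1*). *Rps19bp1* has a matching symbol but encodes a binding partner of RPS19, not a ribosomal protein. *Rps4l* was not analysed here.

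Testes came from 2 wild-type pups and 2 *Meioc*-null pups, which carried the allele *Meioc* tm1.1Dpc backcrossed to C57BL/6N. Germ cells need MEIOC, a partner of the helicase YTHDC2, to complete the passage into meiosis, and the study asked how its loss changes their transcripts. Pups of both genotypes were heterozygous for *Hspa2* tm1Dix and homozygous for a *ROSA26-tdTomato* reporter whose stop was intact. A batch was a littermate pair, 1 pup of each genotype, and the replicate number was taken as the batch. *Meioc* transcripts were still counted in the null libraries. In cluster G7, where the gene was abundant, its level was 664, 690, 706 and 706 CPM (the usual scaling of a gene's UMIs to the total UMIs of a library's cells in a cluster), listed as wild type replicates 1 and 2, *Meioc*-null replicates 1 and 2. The place of these 3′ tags relative to the deletion was not known, and they therefore check nothing about the genotype labels. The same order of libraries is kept for all sets of 4 values.

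The ribosome joins a large and a small subunit, each built on ribosomal RNA from many proteins that are needed in nearly equal numbers. Their genes are among the most highly transcribed of a cell, and many of their mRNAs begin with a run of pyrimidines, the TOP motif, through which growth signals control translation. The male germ line adds a complication, since the X chromosome is silenced when spermatocytes reach the pachytene stage. Several X-linked ribosomal protein genes have autosomal copies that are known to be expressed in male germ cells, among them *Rpl10l* and *Rpl39l*.

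The coding sequences of *Rpl39* and *Rpl39l* are shown because the share of this pair that came from *Rpl39l* rests on telling their reads apart. RPL39 lines the tunnel through which the new protein leaves the large subunit. The gene *Rpl39* lies on the minus strand at chrX:37082520-37085402 and *Rpl39l* on the plus strand at chr16:10170226-10174911 (GRCm38, GENCODE vM21). The 156 bases of each, from start codon to stop codon, are written 5′ to 3′ from the GENCODE vM21 transcripts, and capitals mark the bases that differ between them.

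Rpl39: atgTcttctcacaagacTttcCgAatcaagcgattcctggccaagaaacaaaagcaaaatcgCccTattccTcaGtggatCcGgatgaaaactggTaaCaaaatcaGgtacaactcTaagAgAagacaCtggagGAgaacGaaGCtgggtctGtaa
Rpl39l: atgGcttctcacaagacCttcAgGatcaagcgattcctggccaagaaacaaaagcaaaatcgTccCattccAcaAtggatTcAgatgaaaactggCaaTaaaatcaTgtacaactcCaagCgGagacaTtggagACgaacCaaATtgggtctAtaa

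These sequences differed at 23 bases, 16 of them at the third position of a codon, in 21 of 52 codons including the stop (identity 85.3%). The longest run shared by any transcripts of the genes was 38 bases. The 645-base coding sequences of *Rpl10* (chrX:74270812-74273135, plus strand) and *Rpl10l* (chr12:66283379-66284401, minus strand) were 84.8% identical, with a longest shared run of 23 bases. RPL10 joins the large subunit late, in the cytoplasm. The last 150 bases of their coding sequences, the part nearest to the 3′ end where the reads fall, are written with the differing bases in capitals.

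Rpl10: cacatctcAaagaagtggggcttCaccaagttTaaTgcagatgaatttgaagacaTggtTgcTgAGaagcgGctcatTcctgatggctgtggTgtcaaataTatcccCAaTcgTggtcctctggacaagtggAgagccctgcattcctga
Rpl10l: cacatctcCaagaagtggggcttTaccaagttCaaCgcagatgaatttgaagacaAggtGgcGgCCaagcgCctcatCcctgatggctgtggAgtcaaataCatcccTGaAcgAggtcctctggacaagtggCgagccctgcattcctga

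For *Rpl36a* (chrX:134585654-134588062, plus strand) and *Rpl36al* (chr12:69182731-69184083, minus strand) the identity was 87.9% and the longest shared run 24 bases. *Rps4x* lies on the minus strand at chrX:102184941-102189394. The other paralogues shared runs of 11 to 26 bases with their partners. *Rps27rt* was the exception, with a coding sequence 100% identical to that of *Rps27* and a shared run of 341 bases, so its counts are uncertain. Pseudogene features may take reads as well: *Rpl9-ps6* held 19554 UMIs, *Rpl10-ps3* 10576 and *Rpl36a-ps1* 2393, and how many of these belong to the parent genes was not tested.

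After the study's own filters (more than 1000 genes, less than 10% mitochondrial UMIs) 6334, 8494, 7550 and 7214 barcodes were kept, and 5644, 7505, 6554 and 6522 cells remained after doublet removal, with median depths of 11701.5 to 14420.5 UMIs. Any 2 libraries shared 12 to 16 cell barcodes. Wild-type cells were clustered without the ribosomal protein genes, and cells of all libraries were placed among them. Germ-cell clusters were numbered G1 to G10 by their distance along a tree of cluster centres. By their marker genes G1 was undifferentiated spermatogonia-like, G2 to G4 were differentiating spermatogonia-like, G6 and G7 preleptotene-like, G8 and G9 early spermatocyte-like and G10 pachytene spermatocyte-like. G5, led by the mitotic genes *Nusap1*, *Plk1* and *Ube2c*, stayed unnamed. G10 held 303 and 387 wild-type cells. It held 0 of 6554 and 0 of 6522 *Meioc*-null cells, which allows shares of up to 0.0458% and 0.0460% (counting error only). Because clusters came from wild-type cells alone, this placing could not show a state found only in *Meioc*-null cells. In the study's own clustering some *Meioc*-null cells fell among pachytene spermatocytes, and 1 cluster consisted mainly of *Meioc*-null spermatocytes. Cell numbers in G9 were 225, 596, 71 and 92. Somatic clusters were named Sertoli (a shallow one, and a deep one called Sertoli2), peritubular myoid-like, Leydig-like and interstitial fibroblast-like, beside a shallow unnamed cluster with germ-cell markers. The interstitium was discarded during dissociation, and Leydig-like cells reached 50 only in replicate 2 of each genotype.

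Over the wild-type clusters G1 to G10 the share of all UMIs that came from the 82 genes was highest in undifferentiated spermatogonia-like cells and lowest in pachytene spermatocyte-like cells. It was 20.2% and 21.8% in the replicates of G1, 16.9% and 19.0% in G6, 12.8% and 14.1% in G7, 11.7% and 13.3% in G8, 12.9% and 14.4% in G9 and 9.4% and 10.8% in G10. The mean was 21.0% ± 1.14 (SD, n = 2) in G1 and 10.1% ± 0.979 in G10, a difference between stages that was described and not tested. The order was G1, G6, G4, G3, G2, G5, G9, G7, G8 and G10. The libraries of neighbours in this order overlapped except for G1 over G6 and G8 over G10. Among somatic cells the share was 19.2% and 21.8% in myoid-like, 19.6% and 21.8% in fibroblast-like and 20.8% in Leydig-like wild-type cells. It was 12.8% and 13.3% in the shallow Sertoli cluster and 7.8% and 9.2% in the deep one. In the shallow unnamed cluster with germ-cell markers the wild-type share was 21.4% and 23.8%, above that of G1 in each replicate. Replicate 2 lay above replicate 1 in 15 of 15 wild-type clusters and in 14 of 14 *Meioc*-null clusters that could be compared, so the batch moved with the share.

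**Figure D1:**
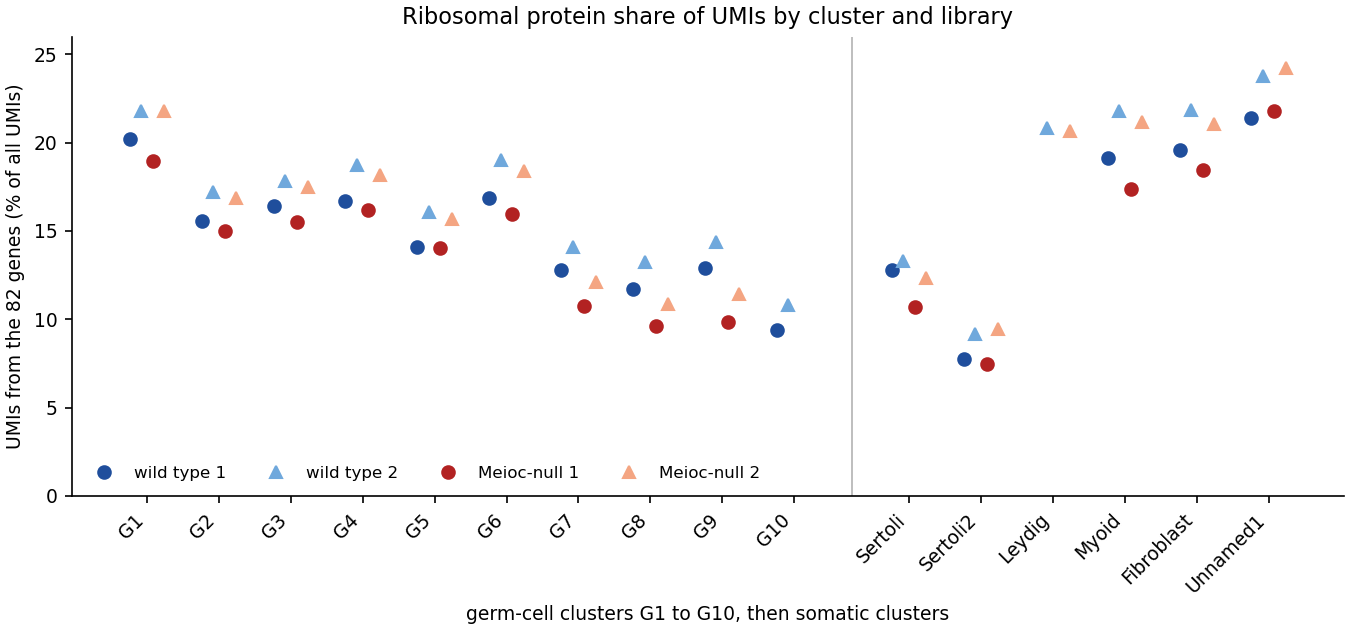
Share of all UMIs from the 82 ribosomal protein genes (percent, vertical axis) in germ-cell clusters G1 to G10 and 6 other clusters (horizontal axis), 1 point per library with at least 50 cells in the cluster. The wild-type points lie at 20.2% and 21.8% in G1 and at 9.4% and 10.8% in G10, and the *Meioc*-null points lie below both wild-type points in G7, G8, G9 and the shallow Sertoli cluster.

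Most core genes kept their place among the others. For each gene the share of the members' UMIs was taken in every wild-type germ-cell cluster, and the highest mean was divided by the lowest. This ratio had a median of 2.04 over the 82 genes and 1.90 over the 69 core genes, and it was under 2 for 39 genes, all of them core. The steadiest were *Rps25* (1.13), *Rps14* (1.26), *Rpl35a* (1.31), *Rpl26* (1.36) and *Rpl37a* (1.40). The largest ratios belonged to *Rpl36a* (29.7), *Rpl10l* (29.5), *Rps4x* (22.5), *Rpl10* (20.8) and *Rpl39* (16), which are the 4 X-linked genes and the paralogue of one of them. Reads were counted at the 3′ end, so levels were not divided by length, and the order of genes by level is an order of tags. *Rps24* and *Rpl13*, core genes of the small and the large subunit, had the most wild-type UMIs. The 3 with the fewest were *Rpl10l*, *Rps27rt* and *Rpl3l*. *Rpl3l*, a form known from striated muscle, gave at most 1.12% of the UMIs of the pair with *Rpl3* in any cluster, on the mean of the wild-type libraries.

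The levels of the core genes were lower in G10 than in G1 throughout. The ratio of the wild-type mean CPM in G10 to that in G1 had a median of 0.491 over the 40 core genes of the large subunit and 0.493 over the 29 of the small subunit, and none of the 69 was higher in G10. Of the paralogues and related genes, 4 of 9 were higher in G10: *Rpl10l* (ratio 3.28), *Rps27l* (2.57), *Rpl39l* (1.99) and *Rps19bp1* (1.51). RPS27L is best known as the product of a p53-responsive gene. The X-linked genes had a median ratio of 0.0309. These ratios describe 2 libraries and were not tested.

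The X-linked genes followed separate courses before G10. *Rpl10* was at 471 and 495 CPM in wild-type G1, 614 and 686 in G6, 283 and 319 in G9 and 16.3 and 22.7 in G10. *Rpl39* was at 91.8 and 95.3 CPM in G2, at 1288 and 1643 in G6 and at 47.1 and 77.1 in G10. *Rpl36a*, whose protein sits near the exit site for tRNA, was between 794 and 1192 CPM in G1 to G4 and G6. That range leaves out G5, where replicate 1 lay lower. In G10 *Rpl36a* was at 20.6 and 22.3 CPM. *Rps4x*, the X-linked gene of a small subunit protein, was at 362 and 333 CPM in G1 and already at 35.7 and 36.4 in G2. It was at 7.4 and 7.5 in G10. In the somatic clusters with high shares *Rps4x* was at 2374 to 3650 CPM in wild type, so its germ-cell levels were low at every stage. Together the 4 genes gave 5.40% and 5.58% of the members' UMIs in wild-type myoid-like cells, 1.01% in each replicate of G1, 1.64% and 1.82% in G6, 0.786% and 0.861% in G9 and 0.0970% and 0.120% in G10.

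*Rpl10l* and *Rpl39l* ran the other way late in the series. *Rpl10l* was at 90.1 and 78.7 CPM in wild-type G1, 13.8 and 14.2 in G5, 107 and 111 in G9 and 270 and 283 in G10. *Rpl39l* was at 611 and 678 CPM in G1, 196 and 179 in G7, 553 and 612 in G9 and 1233 and 1328 in G10. Both genes were therefore high at both ends and low between. *Rpl36al* varied less, from 310 and 316 CPM in G8 to 742 and 837 in G3, and was at 546 and 524 in G10. In somatic cells *Rpl10l* was listed at 0 to 5.1 CPM and *Rpl39l* at 5.7 to 24.5 CPM in the Leydig-like, myoid-like and fibroblast-like libraries. Germ-cell markers were at 38.4 to 113 CPM there, against 1890 and 1777 CPM in wild-type G1, and the part of free germ-cell RNA in these low values was not tested. In myoid-like cells *Rpl10l* was at 4.53, 2.93, 1.84 and 1.67 CPM, higher in both wild-type libraries. In the shallow Sertoli cluster *Rpl39l* was at 197, 49.6, 68.5 and 50.6 CPM beside germ-cell markers at 705, 219, 462 and 338 CPM.

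**Figure D2:**
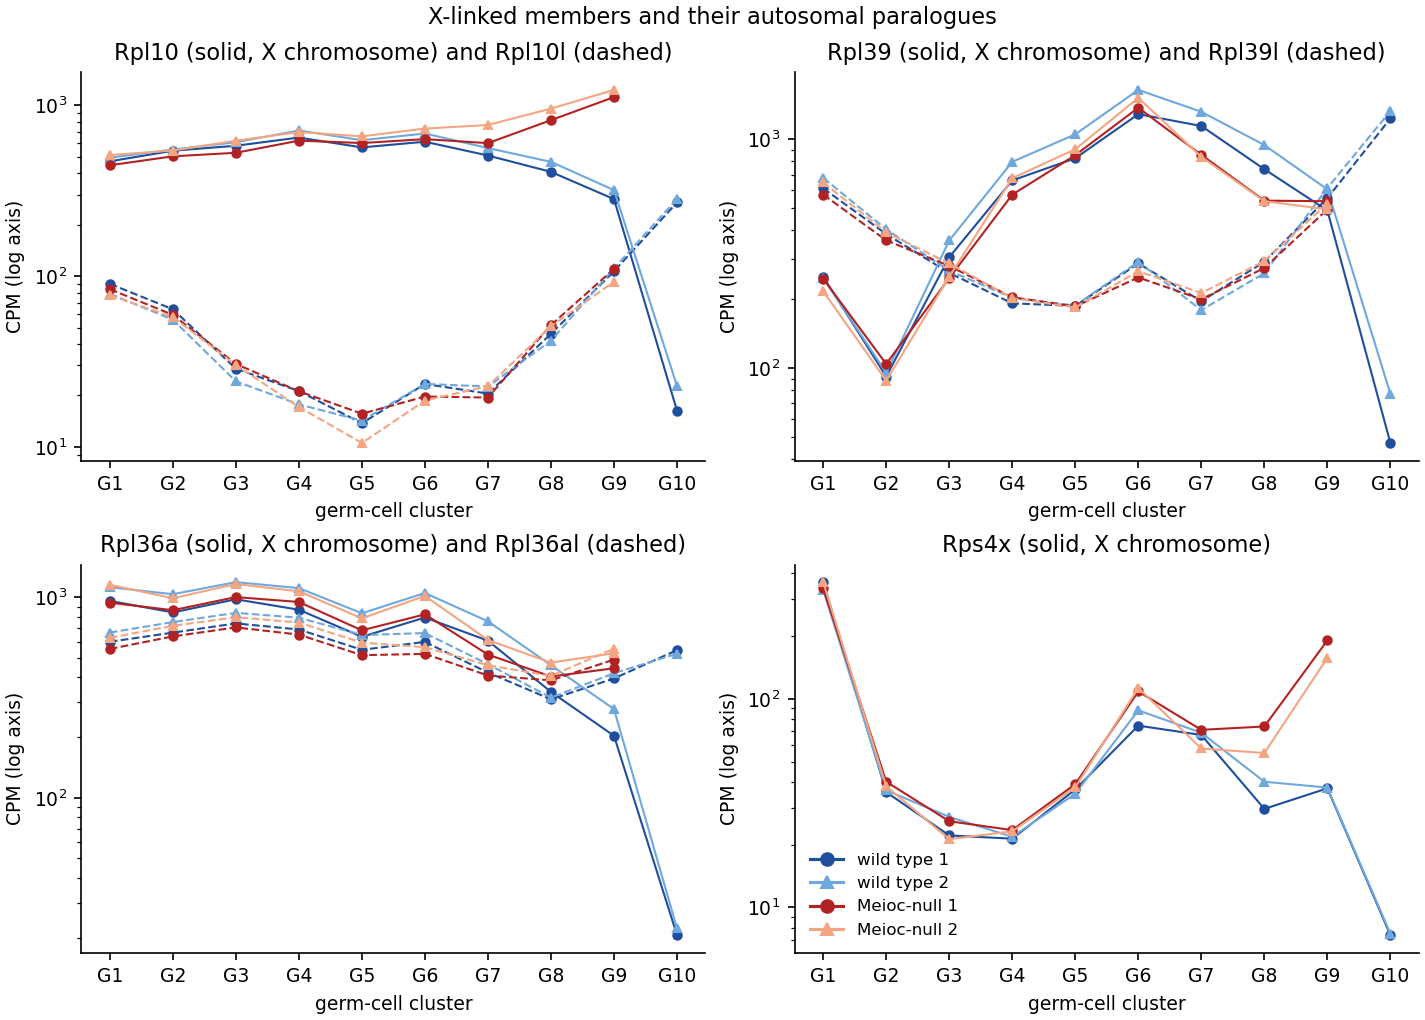
CPM (log axis) of *Rpl10*, *Rpl39*, *Rpl36a* and *Rps4x* (solid) and of *Rpl10l*, *Rpl39l* and *Rpl36al* (dashed) over germ-cell clusters G1 to G10, 1 line per library. In wild type the solid lines end in G10 at 7.4 to 77.1 CPM while the dashed lines end at 270 to 1328 CPM. *Rpl10* and *Rps4x* of the *Meioc*-null libraries lie above wild type in G8 and G9.

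Within a pair the share of the paralogue does not depend on the scaling of the library. Of the UMIs of *Rpl10* and *Rpl10l*, the paralogue gave 14.9% ± 1.65 (SD, n = 2) in wild-type G1, 2.29% ± 0.0976 in G5, 26.6% ± 1.13 in G9 and 93.4% ± 1.23 in G10. *Rpl39l* gave 72.1% ± 1.68 of its pair in G1, 80.8% ± 0.105 in G2, 13.3% ± 1.89 in G7, 51.7% ± 1.95 in G9 and 95.4% ± 1.28 in G10. *Rpl36al* gave 37.9% ± 0.846 in G1, 63.0% ± 4.04 in G9 and 96.1% ± 0.310 in G10. With no doublet removal the *Rpl10l* share of G10 was 84.3%. In myoid-like cells *Rpl10l* gave 0.127% ± 0.0544 and *Rpl39l* 0.568% ± 0.410. The remaining pairs did not turn over in this way. *Rpl22l1*, whose partner *Rpl22* is autosomal, gave 41.0% ± 0.203 in G1, 5.59% ± 0.337 in G7, 33.5% ± 0.0212 in G9 and 21.3% ± 0.775 in G10, and 46.0% ± 1.64 in fibroblast-like cells. *Rps27l* gave 17.7% ± 2.00 of its pair in G1 and 44.0% ± 0.872 in G10. Among the germ-cell clusters *Rpl7l1*, a relative of *Rpl7*, stayed between 6.03% ± 0.579 in G1 and 16.6% ± 1.78 in G5, and it gave 2.90% ± 0.809 in myoid-like cells.

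The share of UMIs from ribosomal protein genes lay lower in both *Meioc*-null libraries than in either wild-type library from the later preleptotene-like cluster on. In G7 it was 12.8%, 14.1%, 10.8% and 12.1%, a difference of -2.00 percentage points (-2.05 and -1.95 in the batches). In G8 it was 11.7% and 13.3% against 9.6% and 10.9% (-2.25, with -2.09 and -2.40 in the batches). In G9 it was 12.9% and 14.4% against 9.8% and 11.4% (-3.0, with -3.06 and -2.93). The genotypes did not overlap in these clusters, nor in the shallow Sertoli cluster, where the share was 12.8% and 13.3% against 10.7% and 12.3% (-1.52, with -2.09 and -0.943). The exact two-sided permutation test gave p = 0.333 in each of the 4 clusters, which is the smallest p that 2 libraries against 2 allow. With 1 library left out the difference was -2.69 to -1.31 in G7, -3.01 to -1.48 in G8, -3.80 to -2.19 in G9 and -2.33 to -0.703 in the shallow Sertoli cluster. The value nearest 0 came without *Meioc*-null replicate 1 in G7, G9 and the Sertoli cluster and without wild type replicate 2 in G8. In the other 10 of 14 clusters compared the genotypes overlapped. In G6, just before, the difference was -0.762 percentage points (-0.874 and -0.651), and it ran from -1.96 to 0.431 with 1 library left out. Within batches the *Meioc*-null share was the lower in both in 12 of the 14 clusters. The exceptions were Sertoli2 and the unnamed shallow cluster.

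The number of ribosomal protein UMIs per cell did not separate the genotypes. In G7 it was 1514, 1542, 1288 and 1633, in G8 1298, 1333, 1026 and 1569 and in G9 1999, 1998, 1668 and 2198, so the *Meioc*-null libraries lay on either side of wild type. The UMIs of all other genes per cell were 10312, 9404, 10690 and 11823 in G7, and 13515, 11897, 15307 and 17003 in G9. There the *Meioc*-null libraries were the higher, without overlap. In G8 they were 9775 and 8729 against 9633 and 12895. Per-cell counts also move with the depth of a library, whose part in these values was not tested.

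**Figure D3:**
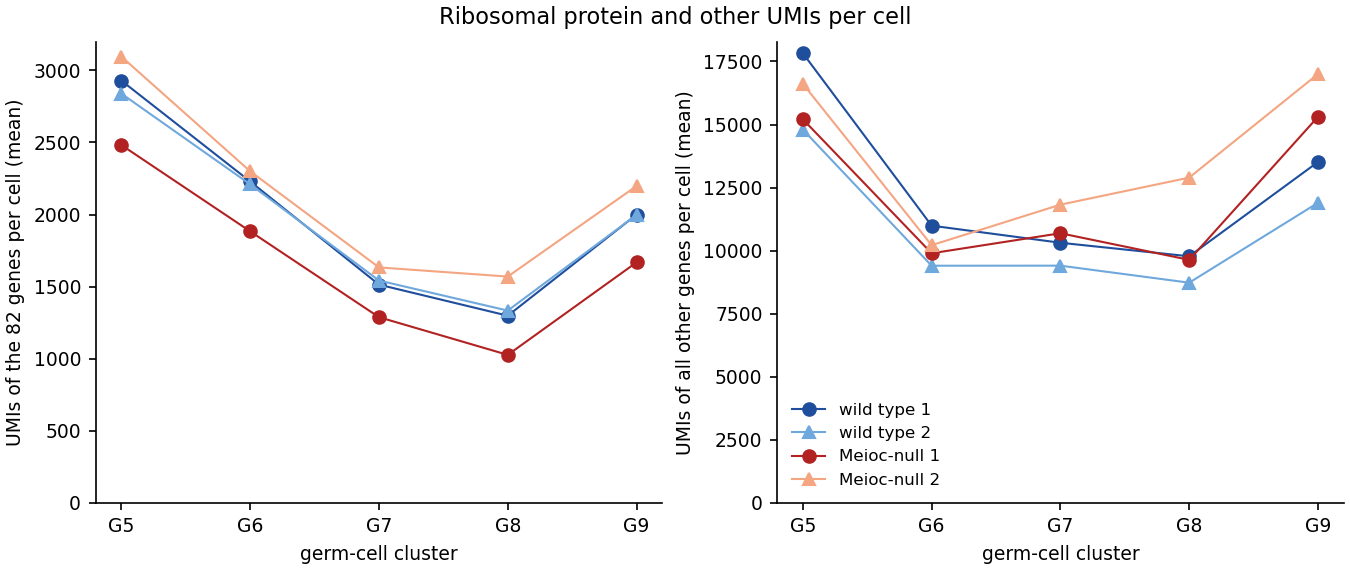
Mean UMIs per cell (vertical axes) from the ribosomal protein genes and from all other genes in the germ-cell clusters, 1 point per library. In G9 the 4 libraries overlap in ribosomal protein UMIs (1668 to 2198), while the other UMIs of wild type (11897 and 13515) lie below those of *Meioc*-null (15307 and 17003).

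Gene by gene, no ribosomal protein gene passed the test in G1 to G6. Log2 fold changes are of wild type over *Meioc*-null. A gene was called at a Benjamini-Hochberg adjusted p under 0.05 in edgeR's quasi-likelihood test across all genes of a cluster and an absolute log2 fold change of at least 0.1. Calls were 0 of 81 in G1 (0.0118% of all genes tested there were called), 0 of 81 in G2 (0.0117%), 0 of 81 in G3 (0.0256%), 0 of 81 in G4 and 0 of 80 in G5 (0 genes called in either) and 0 of 80 in G6 (3.89%). At an unadjusted p under 0.05 the counts were 0, 0, 1, 1, 1 and 1, and DESeq2 called 0 in each (0.0471%, 0.0352%, 0.0256%, 0.0279%, 0.13% and 2.41% of all genes). In the fit blocked on littermate pairs 1 gene was called in G3 (*Rpl39*; 1.21% of all genes), 2 in G4 (*Rpl39* and *Rps27rt*; 1.2%) and 5 in G6 (16.2%), where *Rpl36al*, *Rpl8* and *Rps3* were higher in wild type and *Rps29* and *Rps4x* higher in *Meioc*-null. *Rpl3l* was not tested in any cluster, and *Rpl10l* not in G5 to G7, because under 25% of cells of either genotype had a UMI.

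From G7 on ribosomal protein genes were called, and most of those called were higher in wild type. In G7 17 of 80 genes were called (29.6% of all genes), 16 higher in wild type (20.0% of members against 12.6% of all genes) and 1 higher in *Meioc*-null (against 17.1% of all genes). In G8 36 of 81 were called (54.9%), 32 higher in wild type (39.5% against 27.0%) and 4 higher in *Meioc*-null (4.94% against 27.9%). In G9 53 of 81 were called (62.2%), 48 higher in wild type (59.3% against 30.8%) and 5 higher in *Meioc*-null (6.17% against 31.4%). In this fit the share called in either direction was below that of all genes in G7 and G8 and close to it in G9, and a larger share of members than of all genes was called toward wild type. The median log2 fold change of the members was 0.32, 0.29 and 0.47 in G7, G8 and G9, beside -0.01, -0.00 and -0.01 over all genes tested. Without *Meioc*-null replicate 1 the median in G7 was 0.20. DESeq2 called 38 of 80 in G7 (47.5%, beside 27.8% of all genes), 44 of 81 in G8 (54.3% beside 43.6%) and 57 of 81 in G9 (70.4% beside 48.2%). With the block 65 of 80 were called in G7 (81.3% beside 58.8% of all genes), 57 of 81 in G8 (70.4% beside 58.1%) and 72 of 81 in G9 (88.9% beside 67.1%), of which 61, 50 and 63 were higher in wild type (28.2%, 28.8% and 33.4% of all genes). Counts in G7, G8 and G9 were 1, 12 and 28 when wild type replicate 2 was left out (22%, 40.5% and 49.3% of all genes), and 3, 19 and 34 when *Meioc*-null replicate 1 was (20.3%, 50% and 55.2%). The share of members called in either direction was thus above that of all genes with DESeq2 and with the block, and below it in the fits without either of these libraries, so its place relative to all genes depended on the fit.

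The cells placed in these clusters also differed in markers of stage. The 8 pachytene spermatocyte markers summed to 823, 739, 208 and 224 CPM in G9, in the order of both wild-type and then both *Meioc*-null libraries. Of the 8, 4 were higher in both wild-type libraries and none in both *Meioc*-null ones, and *Ccna1* was at 0 in all 4. *Ldhc*, the lactate dehydrogenase of male germ cells, was at 83.4, 66.4, 15.8 and 13.0 CPM there, and at 2959 and 1121 in wild-type G10. The sums were 605, 499, 322 and 343 CPM in G8 and 222, 185, 159 and 166 in G7. *Ldhc* was also at 23.5, 5.85, 0.141 and 0 CPM in myoid-like cells. The part of free germ-cell RNA in the pachytene marker values was not tested. Of the 8 early spermatocyte markers 4 were called toward wild type and 3 toward *Meioc*-null in G9. The part of this difference in the results from G7 to G9 was not tested.

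**Figure D4:**
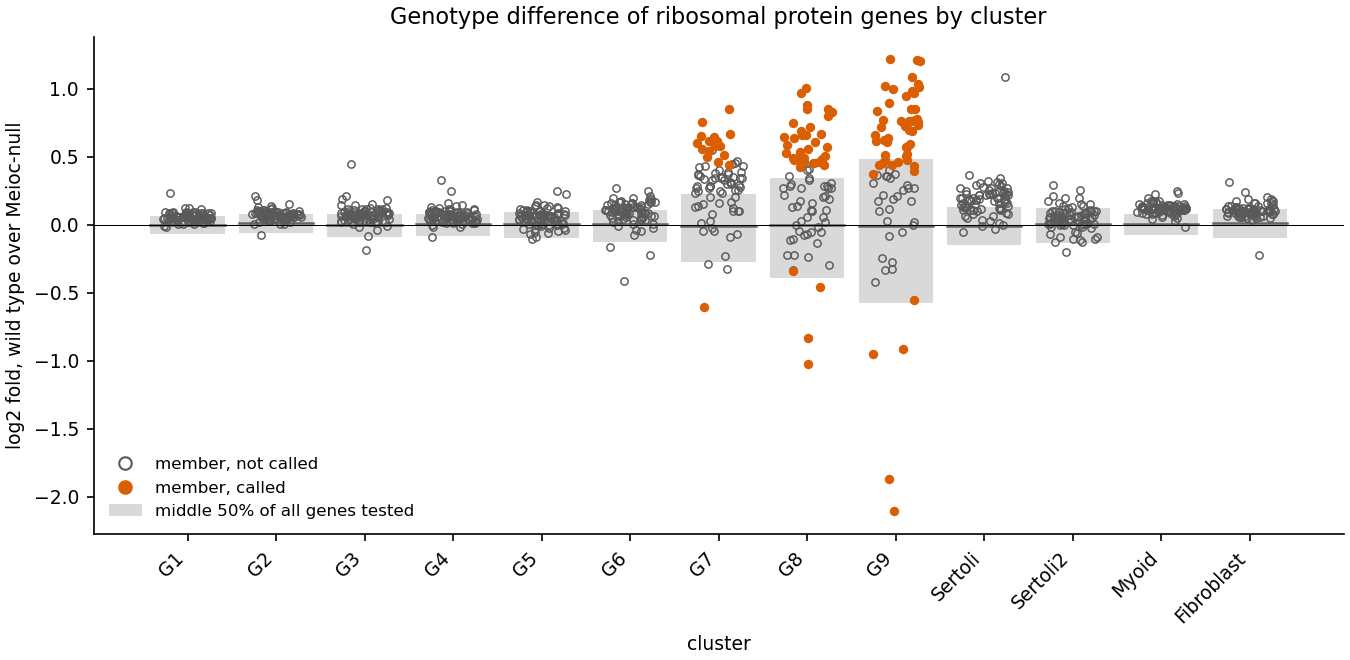
Log2 fold change of wild type over *Meioc*-null (vertical axis) for each ribosomal protein gene tested in 13 clusters (horizontal axis), filled where called, with grey boxes for the interquartile range of all genes tested. Members lie near 0 from G1 to G6, and in G7, G8 and G9 16, 32 and 48 are called above 0 and 1, 4 and 5 below.

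A test of the difference between clusters, chosen after the data were seen, compared the genotype fold changes with those of G6 (edgeR, a term for each library, adjusted p under 0.05). Of 80 genes, 55 differed toward wild type in G7 (18.2% of all genes), 45 in G8 (27.2%) and 57 in G9 (30%). Toward *Meioc*-null 2, 9 and 13 differed (14.4%, 25.8% and 30.7%).

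By subunit, the core genes of the large subunit called higher in wild type were 13 of 40 in G7, 22 in G8 and 28 in G9, and none was called the other way. Their median log2 fold changes were 0.36, 0.45 and 0.69. These were 32.5%, 55% and 70%, beside 12.6%, 27.0% and 30.8% of all genes. For the 29 core genes of the small subunit the counts were 1, 7 and 19 (3.45%, 24.1% and 65.5%), so the share lay below that of all genes in G7 and G8 and above it in G9. In the small subunit 1, 1 and 2 were called the other way, and the medians were 0.30, 0.21 and 0.47. Both subunits thus had positive medians, and no core gene of the large subunit was called higher in *Meioc*-null.

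*Rpl35*, whose protein lies beside the tunnel exit, had the largest fold change of G7 (1108, 1634, 685 and 908 CPM). Both wild-type libraries lay above both *Meioc*-null ones, with a log2 fold change of 0.85 ± 0.24 (SE, edgeR, adjusted p = 0.0290), which was 0.49 with an adjusted p of 0.153 without wild type replicate 2. *Rpl12*, of the base of the stalk that receives translation factors, was at 2453, 2594, 1468 and 1663 CPM in G7 (0.76 ± 0.18, edgeR, adjusted p = 0.0128) and at 1307, 1608, 810 and 771 in G8 (0.88 ± 0.18, adjusted p = 1.31e-05). *Rpl37* was at 1374, 1645, 960 and 1035 CPM in G7 (0.67 ± 0.17, edgeR, adjusted p = 0.0193). The call of *Rpl12* and that of *Rpl37* in G7 were lost without wild type replicate 2 and without *Meioc*-null replicate 1. In G8 and G9 the leading genes were *Rps7*, a small subunit protein needed in ribosomal RNA processing, and *Rpl23a*, of the rim of the tunnel exit. *Rps7* was at 2481, 2779, 1191 and 1420 CPM in G8 and at 2320, 2509, 994 and 1215 in G9 (1.22 ± 0.19, edgeR, adjusted p = 3.59e-08). *Rpl23a* was at 895, 1091, 488 and 523 CPM in G8 and at 865, 959, 395 and 442 in G9 (1.22 ± 0.16, edgeR, adjusted p = 3.35e-10). *Rps15a*, of the small subunit, was at 3068, 3776, 1398 and 1767 CPM in G9 (1.2 ± 0.20, edgeR, adjusted p = 2.07e-07). The genotypes did not overlap for any of these, and the batches gave the same direction.

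Genes that kept a steady share over the stages were called in G9 as well. The log2 fold changes in G9 were 0.59 for *Rps25*, 0.62 for *Rps14*, 0.46 for *Rpl35a*, 0.98 for *Rpl26* and 1.09 for *Rpl37a*. The most abundant genes, *Rps24* and *Rpl13*, were at 0.61 and 1.02. Of these genes *Rps14*, *Rps24*, *Rps25* and *Rpl35a* were not called without wild type replicate 2, nor without *Meioc*-null replicate 1, and *Rps24* and *Rpl35a* were not called without wild type replicate 1 either. The split of directions depended on the scaling. With the members' own UMIs as the library size of a fit over all genes, a setting added after the data were seen, changes are relative to the members as a whole. The members called toward wild type and toward *Meioc*-null were then 13 and 9 of 80 in G7, 19 and 16 of 81 in G8 and 25 and 18 of 81 in G9. Of all genes 1.6% and 24% were called so in G7, 5.81% and 31.2% in G8 and 8.71% and 42% in G9, with medians over all genes of -0.31, -0.29 and -0.46. In either direction 25.6%, 37% and 50.7% of all genes were called.

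**Figure D5:**
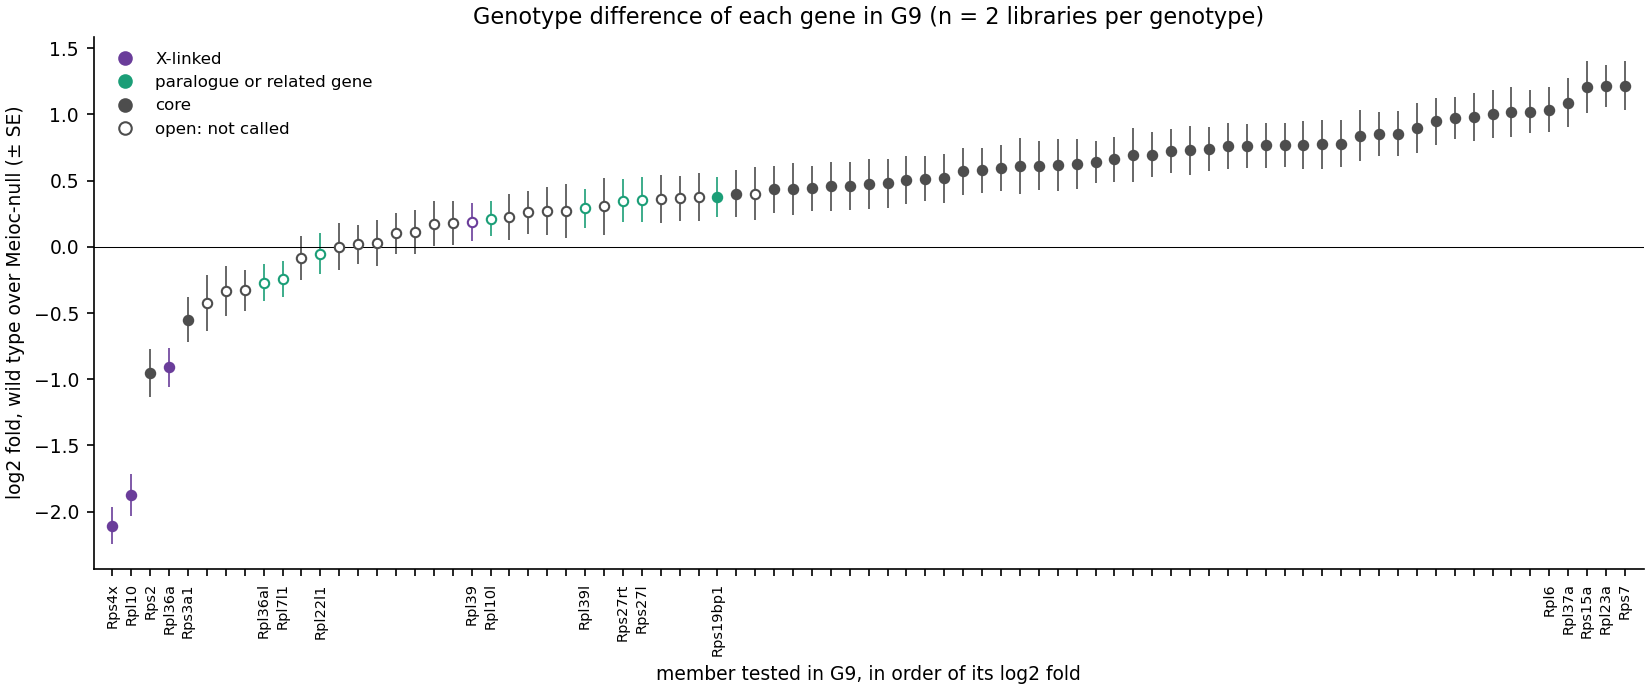
Log2 fold change of wild type over *Meioc*-null (± SE, vertical axis) in G9 for each of the 81 genes tested, in order, coloured by X-linked, paralogue or core and filled where called, with names at both ends and for the X-linked genes and paralogues. *Rps4x* (-2.11), *Rpl10* (-1.87), *Rps2* (-0.95) and *Rpl36a* (-0.91) form the low end and *Rps7* (1.22) the high end.

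The genes higher in *Meioc*-null were few, and 3 of the 5 in G9 were X-linked. *Rps4x* was at 29.7, 40.0, 73.7 and 55.0 CPM in G8 (-0.83 ± 0.15, edgeR, adjusted p = 5.30e-06) and at 37.2, 37.6, 191 and 157 in G9 (-2.11 ± 0.14, adjusted p = 1.06e-22). With the ribosomal protein and other listed genes allowed in clustering, *Rps4x* in G8 was at 0.01 and not called. *Rpl10* was at 408, 468, 821 and 959 CPM in G8 (-1.02 ± 0.16, edgeR, adjusted p = 5.39e-08) and at 283, 319, 1120 and 1234 in G9 (-1.87 ± 0.16, adjusted p = 2.90e-17). *Rpl36a* was not called in G8 (338, 459, 403 and 473 CPM) and was at 204, 277, 443 and 526 in G9 (-0.91 ± 0.15, edgeR, adjusted p = 1.74e-06). *Rpl39* did not follow them in this fit. It was called higher in wild type in G7 (1143, 1319, 855 and 837 CPM, 0.61 ± 0.16, edgeR, adjusted p = 0.0182) and in G8 (740, 943, 539 and 536 CPM, 0.65 ± 0.16, adjusted p = 0.000375). The G7 call was lost without wild type replicate 2 (adjusted p = 0.151) and without *Meioc*-null replicate 1 (0.0606), and the G8 call without wild type replicate 2 (0.124). In G9 it was at 488, 604, 536 and 494 CPM, so the genotypes overlapped (0.19, edgeR, adjusted p = 0.264 and, with the block, 0.0409). The direction in G9 depended on the scaling. With the members' UMIs as library size *Rpl39* was at -0.28. That value passed when fitted over the members alone (edgeR, adjusted p = 0.0100) and not when fitted over all genes (0.0945).

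The autosomal core genes called higher in *Meioc*-null belonged to the small subunit. *Rps2*, whose protein lies at the entry of the mRNA channel, was at 1284, 1165, 1554 and 1789 CPM in G8 (-0.46 ± 0.18, edgeR, adjusted p = 0.0282) and at 1210, 1163, 2244 and 2641 in G9 (-0.95 ± 0.18, adjusted p = 5.83e-06). Its G8 call was lost without either wild-type library or *Meioc*-null replicate 2. *Rps3a1*, of the side where the mRNA leaves, was at 869, 781, 1294 and 1337 CPM in G7 (-0.61 ± 0.15, edgeR, adjusted p = 0.0147) and at 1019, 982, 1483 and 1636 in G9 (-0.55 ± 0.17, adjusted p = 0.00400). Both calls were lost without either wild-type library or *Meioc*-null replicate 2. In G8 it was at 1088, 1004, 1140 and 1290 CPM and was not called (-0.22, edgeR, adjusted p = 0.277).

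Most X-linked genes that were tested were higher in *Meioc*-null in G9, as were 3 of the 4 X-linked members. This summary was chosen after their values were seen. Of 304 X-linked genes tested there other than the members 255 were higher in *Meioc*-null (83.9%), with a median log2 fold change of -1.28, beside 28.9% of 6544 autosomal genes (median 0.02). In G8 107 of 240 were higher in *Meioc*-null (44.6%, median -0.26), and in G7 37 of 192 (19.3%, median -0.05). The X chromosome without the members gave 1.47%, 1.45%, 3.54% and 3.44% of all UMIs in G9. In G6 it gave 2.28% and 2.29% against 2.31% and 2.23%, and in wild-type G10 0.166% and 0.217%. The X-linked members gave 0.786%, 0.861%, 2.33% and 2.11% of the members' UMIs in G9.

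No autosomal paralogue of an X-linked gene was called in G9 in the edgeR fit without the block. The shares of the *Rpl10* and *Rpl36a* pairs did not overlap between genotypes there, and that of the *Rpl39* pair did. The summed pachytene markers (739 and 823 CPM beside 208 and 224) moved with these shares, and their part in them was not tested. *Rpl10l* was at 107, 111, 110 and 92.8 CPM in G9 (0.21, edgeR, adjusted p = 0.163). Over 15 alternative settings its log2 fold change ran from -0.26 to 0.35, and at least 1 setting brought its adjusted p under 0.05. Its share of the pair in G9 was 27.4% (95% exact binomial interval 25.1 to 29.9) and 25.8% (24.4 to 27.3) for wild type, then 8.97% (7.56 to 10.5) and 7.00% (6.00 to 8.11) for *Meioc*-null, intervals that cover counting error only. The difference was -18.6 percentage points (-18.5 and -18.8 in the batches; exact two-sided permutation p = 0.333, the smallest possible). In G8 the mean share was 9.16% ± 1.34 against 5.48% ± 0.634 (SD, n = 2 each), and in G6 3.48% ± 0.262 against 2.75% ± 0.372. *Rpl39l* was at 553, 612, 494 and 523 CPM in G9 (0.29, edgeR, adjusted p = 0.0771 and, with the block, 0.00100). Its share of the pair was 51.7% ± 1.95 against 49.7% ± 2.48 (exact permutation p = 0.667), whereas in G8 it was 24.9% ± 4.71 against 34.5% ± 1.19 and in G7 13.3% ± 1.89 against 19.6% ± 0.930. With 1 library left out the difference in this share was 6.27 to 12.9 percentage points in G8 and 4.96 to 7.63 in G7. This pair also separated without overlap in earlier clusters, at 44.3% ± 2.55 against 53.2% ± 0.218 in G3 (6.98 and 10.9 percentage points in the batches) and 21.4% ± 1.56 against 24.6% ± 2.28 in G4 (3.76 and 2.74). The exact permutation p was 0.333 in G3, G4, G7 and G8. With 1 library left out the log2 fold change in G9 was 0.17 to 0.41 for *Rpl39l* and 0.13 to 0.30 for *Rpl10l*.

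*Rpl36al* was at 310, 316, 386 and 406 CPM in G8 (-0.34 ± 0.13, edgeR, adjusted p = 0.0228), a call lost without either wild-type library or *Meioc*-null replicate 2 and, at 0.03, with the listed genes allowed in clustering. Its share of the pair in G7 was 39.4% ± 2.13 in wild type against 43.4% ± 0.849 in *Meioc*-null (3.07 and 4.88 percentage points in the batches). In G8 the share was 44.3% ± 5.02 against 47.5% ± 1.92, with overlap. The direction was the opposite in G9, at 63.0% ± 4.04 against 51.9% ± 0.818, a difference of -11.1 percentage points (-13.4 and -8.85 in the batches). Its level there, 394, 419, 490 and 555 CPM, passed with the block (-0.27, edgeR, adjusted p = 0.0823 and, with the block, 0.00228). It was -0.11 without *Meioc*-null replicate 2 (adjusted p = 0.578), -0.18 without wild type replicate 1 (0.464) and -0.38 without *Meioc*-null replicate 1 (0.0456). *Rpl22l1* was at 528, 624, 584 and 688 CPM in G9 (-0.05, edgeR, adjusted p = 0.786) and its share of the pair was 33.5% ± 0.0212 against 46.5% ± 1.75. *Rps27l* was at 1425, 1588, 1014 and 1121 CPM in G8 (0.49 ± 0.18, edgeR, adjusted p = 0.0154), a call lost without wild type replicate 2 or *Meioc*-null replicate 1, and was not called in G9 (0.36, adjusted p = 0.0654 and, with the block, 1.64e-05). *Rpl7l1* gave 6.53% ± 0.166 of its pair in wild-type G9 and 12.4% ± 0.985 in *Meioc*-null, at levels of 90.2, 90.6, 114.5 and 114 CPM (-0.24, edgeR, adjusted p = 0.110). *Rps27rt* was at 83.4, 60.0, 62.2 and 56.0 CPM in G9 (0.35, edgeR, adjusted p = 0.0577 and, with the block, 0.0422). *Rps19bp1*, the gene that is no ribosomal protein, was called in G7, G8 and G9 (0.44, 0.49 and 0.38), though not in G7 without wild type replicate 1 or *Meioc*-null replicate 2, and not in G9 by DESeq2 or without wild type replicate 1, wild type replicate 2 or *Meioc*-null replicate 1.

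Many of the genes share a run of pyrimidines near the start of transcription, which the rule did not use. In windows from 10 bases before to 20 bases after the annotated start, on the strand of the gene, a C followed by at least 4 bases that are each C or T was found in 42 of the 63 members with an entry (66.7%), beside 39.6% of 27025 genes. The run began at the annotated start itself in 13 members (20.6%), beside 3.01% of all genes. Shown are windows of *Rps7* and *Rps15a*, which with *Rpl23a* (no entry) led the calls toward wild type in G9, of the 5 genes called toward *Meioc*-null there and of *Rpl39*, the X-linked gene not called there, from RefSeq on GRCm38.p6 with these runs in capitals.

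Rps7, chr12:28635934-28635963, minus strand: cggtttccacccacctaCTTCCgctgtccc
Rps15a, chr7:118116128-118116157, minus strand: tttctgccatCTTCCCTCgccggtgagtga
Rps4x, chrX:102189372-102189401, minus strand: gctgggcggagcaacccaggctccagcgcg
Rpl10, chrX:74270806-74270835, plus strand: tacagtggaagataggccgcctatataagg
Rps2, chr17:24720053-24720082, plus strand: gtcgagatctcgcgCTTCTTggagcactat
Rpl36a, chrX:134585644-134585673, plus strand: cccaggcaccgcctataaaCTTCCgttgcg
Rps3a1, chr3:86142649-86142678, minus strand: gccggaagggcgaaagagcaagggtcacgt
Rpl39, chrX:37085203-37085232, minus strand: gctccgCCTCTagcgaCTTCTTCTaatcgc

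*Rps7* and *Rps15a*, higher in wild type, held such a run. Of the 5 genes higher in *Meioc*-null, *Rps2* and *Rpl36a* held one, and *Rps4x*, *Rpl10* and *Rps3a1* held none in this window. These few windows support no comparison of the directions. Annotated starts may lie some bases from the real ones, and a match of letters is no measure of TOP control.

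Other genes of the same machinery were described from lists, whose counts are read beside all genes tested (12.6% toward wild type and 17.1% toward *Meioc*-null in G7, 27.0% and 27.9% in G8, 30.8% and 31.4% in G9). Of the 6 cytosolic ribosomal proteins whose symbols fall outside the rule, 1, 3 and 3 were called in G7, G8 and G9, each time higher in wild type (16.7%, 50% and 50%; medians 0.46, 0.45 and 0.58). In G9 these were *Fau* (0.85), *Rplp2* (0.62) and *Rplp1* (0.53), the latter 2 being stalk proteins. Of 15 translation factors and other TOP mRNAs in G9 7 were called toward wild type and 1 toward *Meioc*-null (46.7% and 6.67%; median 0.26). *Pabpc1*, which binds poly(A) tails, was at 1.15, *Eif3e*, a subunit of initiation factor eIF3, at 1.13, and *Tpt1*, a classical TOP mRNA, at 1.10 (log2 fold changes). *Eif4a1*, the initiation helicase, was at -1.05. Of 23 ribosome biogenesis genes tested in G9 8 were called toward *Meioc*-null (34.8%, close to the share of all genes) and 2 toward wild type (8.70%; median -0.22). Among the 8 were *Nol11* (-1.32), *Nhp2* (-1.02), *Nop58* (-0.84), *Nop56* (-0.76) and *Dkc1* (-0.72), which process or modify ribosomal RNA. In G7 the counts toward *Meioc*-null and toward wild type were 4 (18.2%, also close to that of all genes) and 1 of 22, and in G8 4 and 5 of 20 (20.0% and 25.0%).

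The mitochondrial ribosomal proteins, which build a separate ribosome, did not follow one direction. Of 74 tested in G8 32 were called toward wild type and 12 toward *Meioc*-null (43.2% and 16.2%; median 0.24), whereas of 78 tested in G9 11 and 31 were (14.1% and 39.7%; median -0.22). In G7 3 and 6 of 73 were (4.11% and 8.22%; median 0.05). All genes were called toward wild type and *Meioc*-null at 27.0% and 27.9% in G8, 30.8% and 31.4% in G9 and 12.6% and 17.1% in G7. Among the regulators tested in G9 *Larp1*, whose protein binds TOP mRNAs, was higher in wild type (1.30), and *Eif4ebp1*, an inhibitor of cap-dependent initiation, and *Rps6kb1*, a kinase of RPS6, were higher in *Meioc*-null (-2.37 and -0.52). The rest of this list (*Mtor*, *Myc* and *Mycn*) is not given here, and 62.2% of all genes tested in G9 were called.

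In somatic cells no ribosomal protein gene was called. Calls were 0 of 78 in the shallow Sertoli cluster (0% of all 1685 genes tested), 0 of 80 in Sertoli2 (0.0773% of all genes), 0 of 79 in myoid-like cells (0.0953%) and 0 of 79 in fibroblast-like cells (0.0225%), by edgeR and by DESeq2 (0%, 0%, 0.0381% and 0.0225% of all genes), and the counts at an unadjusted p under 0.05 were 0, 0, 0 and 0. In the shallow Sertoli cluster the members' median log2 fold change was 0.19, beside -0.01 over all genes tested, and 75 of 78 were above 0. Of the members, 37 had wild-type CPM above *Meioc*-null CPM without overlap, beside 12% of all genes. These counts go with the lower share of that cluster in *Meioc*-null and are not separate observations. *Rps4x* and *Rpl10*, which differed in G9, overlapped between genotypes in fibroblast-like cells. There *Rps4x* was at 3291, 3650, 3226 and 3353 CPM and *Rpl10* at 3014, 3550, 3013 and 3440 CPM.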

How the data were processed

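Per the study's methods the authors aligned and counted reads with Cell Ranger 4.0.0 on mm10 (GRCm38, GENCODE vM23), and the deposited values are raw UMI counts per gene and barcode, with no normalization. UMI counts of 3′ tags are not divided by gene length. From these counts, barcodes with more than 1000 genes and less than 10% mitochondrial UMIs were kept, doublets were removed by a simulated-doublet score, and wild-type cells were clustered without the ribosomal protein and other listed genes (scanpy 1.11.5). Each cell of every library was placed by its 30 nearest wild-type cells, which returned 99.3% of wild-type germ cells to their own cluster. With the called genes left out the return was 93.5%. The wild-type cells were themselves the reference, so a high return was built in. It does not measure how well *Meioc*-null cells were placed. A cluster was named only where at least 3 of its markers were found. A shallow cluster also needed a marker of its class among its leading genes. Germ-cell clusters were named where the next class scored at most 0.848 of the best (G10), and G5, at 0.995, was not. These rules were set after the clusters were seen.

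Counts were summed per library and cluster, in the 13 clusters with at least 50 cells in all 4 libraries, and tested with edgeR 4.0.16 (quasi-likelihood, TMM) in R 4.3.3 over genes detected in 25% or more of either genotype's cells. This replaces the study's test over single cells. DESeq2 1.42.0 and the settings of the closing section were alternatives. CPM values are not TMM-scaled. Shares were compared by exact permutation tests over libraries. Per the protocol text of the samples each batch held a littermate pair, taken here as the libraries with the same replicate number. The deviations of same-numbered libraries correlated at r = 0.186 to 0.684 over genes, so the blocked fit is given where it changes a call. The replicates are separate pups. After filtering the libraries held 5644 to 7505 cells, with medians of 11701.5 to 14420.5 UMIs per cell. Scripts were tested on simulated data.

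The named genes were the X-linked members and paralogues, the 3 largest called changes per direction and cluster, the 5 steadiest and 5 least steady genes over the wild-type stages, and the 3 highest and lowest by level. Of the genes named by this rule, 1 is not reported here. The members and lists were chosen with earlier results of these data known, and the X chromosome summary and the tests of differences between clusters after their values were seen.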

Additional observations from a re-analysis of the deposited data

Results flagged for a closer look

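The genotype difference of many ribosomal protein genes was not the same in later clusters as in G6, by a test of the difference between clusters over the libraries (edgeR, adjusted p under 0.05, a term for each library, 2 residual degrees of freedom per gene). Of 80 genes, 55 differed toward wild type and 2 toward *Meioc*-null in G7, beside 18.2% and 14.4% of all genes. In G8 45 and 9 did, beside 27.2% and 25.8%. In G9 57 and 13 did, beside 30.0% and 30.7%.

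Of the genes always named, 7 differed between G9 and G6. The difference of the log2 fold changes (wild type over *Meioc*-null, G9 minus G6) was -1.83 ± 0.07 (SE) for *Rpl10* (edgeR, adjusted p = 4.17e-17), -1.71 ± 0.14 for *Rps4x* (1.88e-10) and -0.95 ± 0.08 for *Rpl36a* (7.49e-11). It was -0.51 ± 0.08 for *Rpl36al* (2.77e-06), -0.31 ± 0.13 for *Rpl7l1* (0.0437) and -0.21 ± 0.08 for *Rpl22l1* (0.0339). *Rps27l* was the gene of these with a positive difference, 0.40 ± 0.07 (2.00e-05). Before G9 the X-linked genes differed from G6 in other ways. In G7 the difference was 0.61 ± 0.14 for *Rps4x* (edgeR, adjusted p = 0.0120), 0.36 ± 0.07 for *Rpl36a* (0.00545) and 0.61 ± 0.08 for *Rpl39* (0.00125), all toward wild type, and -0.19 ± 0.07 for *Rpl10* (0.0780). In G8 it was -0.42 ± 0.15 for *Rps4x* (edgeR, adjusted p = 0.0157), -0.96 ± 0.09 for *Rpl10* (9.24e-16), 0.61 ± 0.08 for *Rpl39* (4.11e-09) and -0.16 ± 0.09 for *Rpl36a* (0.125). G9 held 71 and 92 *Meioc*-null cells, the fewest of any germ-cell cluster tested.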

How the results depend on the processing

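Members called with the replicate block were 1 in G3, 2 in G4, 5 in G6, 65 in G7 and 57 in G8, the pairing changing no other cluster's count by over 1.5 times. Of all genes 1.21%, 1.2%, 16.2%, 58.8% and 58.1% were called there. DESeq2 called 38 in G7 (27.8% of all genes). With the members' UMIs as library size, fitted and adjusted over the members alone, so that no share of all genes exists, 1 was called in G6 and 29 in G7. Fitted over all genes, a setting added after the data were seen, 1 was called in G6 (0.345% of all genes). With no detection filter 1 was called in G6 (2.77%) and 20 in G8 (23.3%), and with placing without called genes 1 in G6 (4.37%). Leaving out 1 library gave 0 to 1 in G6 (0.281% to 3.29% of all genes), 1 to 13 in G7 (20.3% to 30.5%), 12 to 33 in G8 (40.5% to 51.9%), 28 to 57 in G9 (49.3% to 55.2%) and 0 to 1 in the shallow Sertoli cluster (0 to 0.59%). Library totals moved the median log2 fold of all genes in G9 from -0.01 to -0.11.

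Shares in wild-type G10 with the 5% mitochondrial limit were 95.2% (*Rpl10l*), 96.9% (*Rpl39l*), 97.2% (*Rpl36al*) and 20.4% (*Rpl22l1*). With no doublet removal they were 84.3%, 93.1% and 90.9%, and 42.7% for *Rps27l*. With the listed genes allowed in clustering they were 95.2%, 97.0%, 96.9%, 20.1% and 45.2%, and the genotype differences in percentage points were -0.335 (*Rpl10l*, G7), 3.89 and -4.73 (*Rpl39l*, G7 and G9) and 4.52 and -1.69 (*Rps27l*, G7 and G9). With placing without called genes they were 2.21 (*Rpl22l1*, G8) and 0.168 (*Rps27l*, G9).

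Log2 fold changes that turned were, in G9 with the members' library size, *Rpl10l* (-0.25), *Rpl39* (-0.28), *Rpl39l* (-0.16) and *Rps19bp1* (-0.053), and over all genes -0.26, -0.28, -0.16 and -0.041. *Rpl22l1* in G9 was at 0.076 with no filter, 0.033 with the listed genes allowed, 0.018 with placing without called genes and -0.23 to 0.14 with 1 library left out. With the listed genes allowed, *Rpl36al* (0.033) and *Rps4x* (0.013) turned in G8. *Rpl39* in G9 was at -0.026 without wild type replicate 2 and at up to 0.38 without wild type replicate 1. The cause was not tested. Of 51 results on named genes, 26 no longer passed without wild type replicate 2, 18 without *Meioc*-null replicate 1, 12 without wild type replicate 1 and 7 without *Meioc*-null replicate 2. The 51 include results that had not passed with all libraries and no block: *Rpl10l*, *Rpl39l*, *Rpl36al*, *Rpl22l1* and *Rpl39* in G9. Fewer than 51 calls could therefore be lost. With the 5% limit G7 to G9 had too few cells and were not run. The 2 libraries per genotype and the few *Meioc*-null cells of G9 limit the precision.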

Other observations

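Over the 20 points of wild-type libraries and germ-cell clusters, the genes whose log2 CPM ran most like that of *Rpl10l*, of 1260 genes tested in every cluster, were *Pam16* (Pearson r 0.981), *Ybx1* (0.959), *Atxn7l3b* (0.932), *Tcp1* (0.924) and *Chrac1* (0.918). For *Rpl39l* they were *Pam16* (0.955), *Ndufs6* (0.927), *Ybx1* (0.919), *Atp5g3* (0.910) and *Chrac1* (0.875). The points share libraries, so these values are a description.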
